A study of Mus musculus with 8 samples.

Results

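Mouse bone marrow macrophages kept for 3 days with RANKL were compared with the same kind of macrophages at day 0, before RANKL was added. The comparison rests on 4 of the 8 arrays of the study, the 2 labelled as 3 days of RANKL and the 2 labelled as 0 days, and on 8663 genes that were detected on at least 2 of the 8 arrays. Per the labels, marrow came from the femurs and tibias of C57BL/6 mice aged 6 to 8 weeks and was held for 16 h in M-CSF at 5 ng/ml. The non-adherent cells were then grown for 3 days in M-CSF at 30 ng/ml, and the cells that adhered were taken as macrophages. The day 3 cells received M-CSF at 30 ng/ml together with RANKL at 50 ng/ml for 3 days, whereas the day 0 cells had received M-CSF and no RANKL. No genotype or transgene is named for either group. No array came from cells kept for 3 more days on M-CSF alone, so RANKL and time in culture cannot be told apart. Nothing in the labels tells whether both replicates of a day are separate cultures or mice. Each p-value is therefore relative to a spread between arrays that may be technical only.

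RANKL, a cytokine of the tumour necrosis factor family, binds its receptor RANK on cells of the monocyte and macrophage lineage. With M-CSF it turns them into osteoclasts, the large multinucleated cells that dissolve bone. The receptor signals through TRAF adaptors to NF-kB and AP-1 transcription factors, and calcium signals from receptors with ITAM-bearing partners join in to switch on NFATc1. The mature cell seals off a patch of bone with a ring of actin, pumps acid into it and releases proteases that digest the exposed collagen.

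Levels below are normalized intensities on the log2 scale, given for replicate 1 and then replicate 2 of a day. A difference is the mean of day 3 minus the mean of day 0 on that scale, ± its standard error (SE, n = 2 arrays per day). It was tested with limma over all 8663 genes, and "rose" or "fell" is used only for a Benjamini-Hochberg adjusted p under 0.05. A gene is called detected where the deposited detection p was under 0.05. Where a gene was detected on neither array of a day, the fold change is given as a lower bound. Between 43.9% and 44.2% of the 25697 probes were detected on each of the 8 arrays. Across genes, the replicate arrays of a day correlated at r = 0.994 to 0.9956, and arrays of day 3 with arrays of day 0 at r = 0.8812 to 0.8835 (taken across genes, which are no replicates of each other). The day 0 cells, labelled as macrophages, had Adgre1, which codes for the F4/80 antigen, at 12.33 and 11.93 and the monocyte and macrophage gene Cd14 at 12.67 and 12.52. Csf1r and Cd68 were not analysed here.

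More genes differed between the days than did not. Of the 8663 genes, 2533 (29.2%) rose and 2583 (29.8%) fell, 59.1% in all, and the arrays of the 2 days did not overlap for 6711 genes (77.5%). Counts of list members given below are to be read beside these shares. At least 4-fold changes were called for 367 genes that rose (4.24%) and 424 that fell (4.89%), and at least 16-fold changes for 68 and 50. The median difference over all genes was -0.01, a value that quantile normalization holds near 0. With median scaling of the arrays it was -0.0996, with 2131 genes higher and 2907 lower. Against a 2-fold change as the null, limma called 659 genes higher and 708 lower. Of the genes that rose, 313 were detected on no day 0 array and on both day 3 arrays, and 286 of those that fell showed the opposite pattern. In bulk samples such as these, fewer cells of a type and less RNA per cell cannot be told apart.

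**Figure D1:**
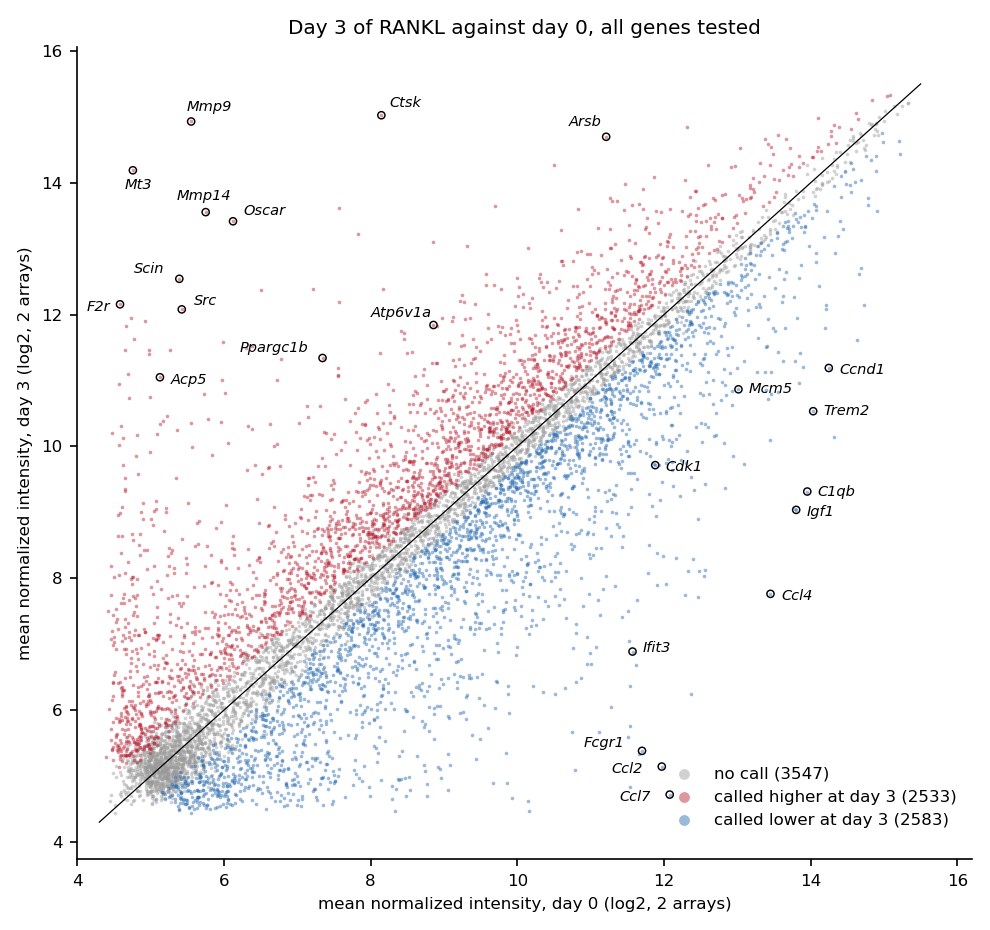
Mean normalized intensity (log2, 2 arrays) at day 3 on the vertical axis and at day 0 on the horizontal axis for the 8663 genes tested, with the 2533 called higher at day 3 in red, the 2583 called lower in blue and genes with no call in grey. Mmp9, Mt3, Ctsk and Mmp14 lie far above the line of equal levels, and Ccl7, Ccl2 and Fcgr1 far below it.

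The genes that carry out bone resorption rose to high levels. Of 22 genes on the bone resorption list, 21 were tested, 19 rose and 1 fell, with a median difference of 2.19. Mmp9, a gelatinase, stood at 14.92 and 14.94 at day 3, against 5.48 and 5.63 at day 0, a difference of 9.38 ± 0.09 (665-fold, limma adjusted p = 2.4e-08). Ctsk, the cathepsin that digests bone collagen, stood at 15.04 and 15.01 at day 3, against 8.10 and 8.19 at day 0 (6.88 ± 0.09). Acp5, the gene of tartrate-resistant acid phosphatase and thus of the classical osteoclast stain, stood at 11.04 and 11.06 at day 3, against 4.96 and 5.30 at day 0, where 1 of the 2 arrays detected it (5.92 ± 0.15). For all these genes the day 3 arrays lay far above the day 0 arrays and close to each other. Mmp14, a membrane-bound metalloproteinase, stood at 13.46 and 13.65 at day 3, against 6.05 and 5.45 at day 0 (7.80 ± 0.19). The carbonic anhydrase gene Car2, whose enzyme makes protons for acid secretion, was at 10.76 and 10.74 at day 3 and detected on neither day 0 array (5.10 and 4.88), which makes it at least 45.2-fold higher. Src, a kinase needed for the ruffled border, was at 12.03 and 12.13 at day 3, against 5.44 and 5.41 at day 0 (6.66 ± 0.08), although its other detected probe differed by only 0.31 (limma adjusted p = 0.328).

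Transporters that move acid, chloride and bicarbonate rose with the proteases, by smaller amounts and mostly from high day 0 levels. Clcn7, the chloride-proton exchanger of the ruffled border, was at 13.30 and 13.26 at day 3, against 10.55 and 10.63 at day 0 (2.69 ± 0.10). Slc4a2, a chloride-bicarbonate exchanger, was at 13.90 and 13.91 at day 3, against 11.66 and 11.77 at day 0 (2.19 ± 0.09). The sodium-proton antiporter gene Slc9b2 stood at 13.62 and 13.63 at day 3, against 7.51 and 7.62 at day 0 (6.06 ± 0.09). Hvcn1, a voltage-gated proton channel, was the list member that fell, at 8.39 and 8.46 on day 3 against 9.35 and 9.43 on day 0 (fell by 0.97 ± 0.09). Itgb3, the beta chain of the osteoclast vitronectin receptor, was at 5.13 and 4.88 at day 3, against 5.04 and 4.92 at day 0, and was detected on none of these 4 arrays. Its partner Itgav rose by 1.68.

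The V-ATPase, the pump that acidifies lysosomes and the space under the osteoclast, rose in nearly all tested subunits. Of 15 tested genes (of 17 on the list) 13 rose and 1 fell, with a median difference of 1.18. The subunit genes of the soluble domain led, with Atp6v1a at 11.67 and 12.02 at day 3 against 9.17 and 8.55 at day 0 (2.99 ± 0.23), and Atp6v1d at 14.13 and 14.03 against 12.01 and 11.72 (2.21 ± 0.12). The membrane subunit "a" is made from several genes, and these differed in direction. Tcirg1, counted with the bone resorption list and whose a3 form is the one known from the ruffled border, rose to 14.27 and 14.27 at day 3, against 12.60 and 12.59 at day 0 (1.67 ± 0.08). Atp6v0a1 fell to 9.21 and 9.18 at day 3, against 11.97 and 11.91 at day 0 (fell by 2.75 ± 0.11), and Atp6v0a2 differed by -0.01 with no call. Atp6v0d2, a subunit known for osteoclasts, was below the detection filter.

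**Figure D2:**
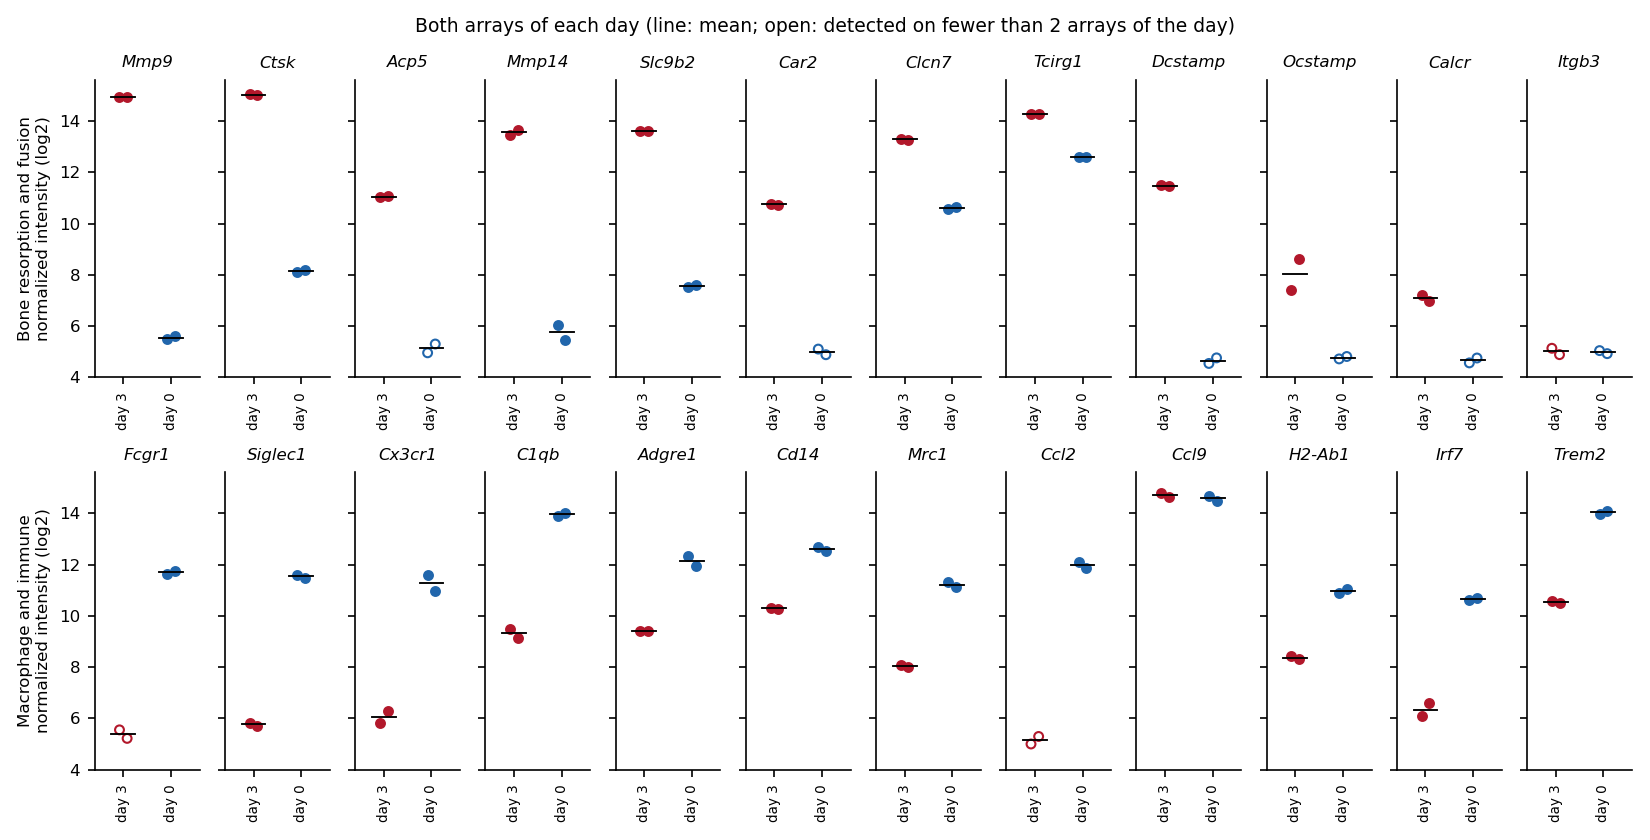
Normalized intensity (log2) of 24 genes on both arrays of day 3 (red, left) and of day 0 (blue, right), with the mean as a line and open circles where fewer than 2 arrays of that day detected the gene. Resorption and fusion genes (upper row) were higher at day 3 on both arrays except Itgb3, and macrophage and immune genes (lower row) were lower except Ccl9, at 14.79 and 14.62 against 14.67 and 14.49.

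Genes of cell fusion did not move as a group. Of 10 tested genes 4 rose (40%, against 29.2% of all genes) and 3 fell (30%, against 29.8%), with a median difference of 0.00. Dcstamp and Ocstamp, which code for multi-pass membrane proteins required for osteoclast precursors to fuse, were detected on neither day 0 array. Dcstamp stood at 11.49 and 11.45 at day 3, against 4.54 and 4.76 at day 0, at least 74.2-fold higher. Ocstamp stood at 7.42 and 8.63 at day 3, against 4.72 and 4.81 at day 0, at least 6.83-fold higher, with replicates farther apart than those of Dcstamp. The other 2 calls higher, Cd44 (0.32 ± 0.09) and Pcdh7 (0.48 ± 0.11), were lost with median scaling of the arrays and with a replicate block on the 4 arrays. Cd81, a tetraspanin, fell to 10.61 and 10.65 at day 3, against 12.90 and 12.96 at day 0 (fell by 2.30 ± 0.10), whereas the tetraspanin gene Cd9 differed by -0.01 ± 0.08.

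Among genes of the actin ring and of podosomes, the adhesion structures that form it, 13 of 27 rose and 4 fell (median 0.23). Scin, an actin-severing protein, stood at 12.48 and 12.61 at day 3, against 5.03 and 5.75 at day 0, where 1 array detected it (7.15 ± 0.22). Focal adhesion proteins rose as well, with paxillin (Pxn) at 10.13 and 10.13 against 7.91 and 8.03 (2.16 ± 0.09) and vinculin (Vcl) at 11.39 and 11.30 against 9.46 and 9.39 (1.92 ± 0.09). Zyxin (Zyx) went the other way, to 11.31 and 11.28 at day 3 against 12.99 and 13.19 at day 0 (fell by 1.80 ± 0.10). Of 4 calls lower, 2 were left without day 3 replicate 2. Of the integrin genes, Itgb7 rose to 11.82 and 11.85 at day 3, against 9.76 and 9.72 at day 0, and Itgb5, which pairs with the same alpha chain as Itgb3, fell by 2.35 ± 0.10.

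Of the RANK signalling genes, 8 of 14 rose and 1 fell (median 0.56). Traf1, an adaptor of this receptor family, stood at 11.53 and 11.47 at day 3, against 6.35 and 6.26 at day 0 (5.20 ± 0.08). The receptor gene itself, Tnfrsf11a, stood at 9.81 and 10.08 at day 3, against 9.46 and 9.23 at day 0 (0.60 ± 0.13, limma adjusted p = 0.0065), and lost its call with median scaling and with a replicate block on the 4 arrays (limma adjusted p = 0.0524 and 0.05361). Traf6, its main adaptor, differed by 0.59 ± 0.12 on its brightest probe and by -0.27 and 0.66 on its other probes, neither of which passed; over the mean of its probes the call was lost (limma adjusted p = 0.05849). Birc2, a ubiquitin ligase of the TRAF complex, rose by 1.84 ± 0.08, and the deubiquitinase gene Cyld, which restrains the pathway, by 0.81 ± 0.10. Of 10 NF-kB subunit and inhibitor genes 7 rose and 1 fell (median 1.49). The subunits of the alternative pathway rose, Relb to 9.48 and 9.57 at day 3 against 7.07 and 7.24 at day 0, and Nfkb2 to 7.63 and 7.63 against 5.35 and 5.43. The inhibitor genes Nfkbia (2.01 ± 0.10), Nfkbie (1.98 ± 0.13) and Tnfaip3 (2.36 ± 0.24) rose by similar amounts. Rel differed by 0.01, with no call, Rela rose by 0.40 ± 0.08 (limma adjusted p = 0.06253 with a replicate block on the 4 arrays), and the atypical inhibitor gene Nfkbiz fell by 1.54 ± 0.09.

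The promoters of Nfkb2 and Nfkbia are shown because both genes rose more than 4-fold and both windows hold the NF-kB motif, searched on both strands and set in capitals. The sequences are from RefSeq (GRCm38.p6) and run from 250 bases before to 50 bases after the gene start, 5′ to 3′ on the strand of the gene. For Nfkb2 they cover chr19:46305680-46305979 (+ strand), the third of 3 annotated starts, and for Nfkbia chr12:55492598-55492897 (- strand).
Nfkb2: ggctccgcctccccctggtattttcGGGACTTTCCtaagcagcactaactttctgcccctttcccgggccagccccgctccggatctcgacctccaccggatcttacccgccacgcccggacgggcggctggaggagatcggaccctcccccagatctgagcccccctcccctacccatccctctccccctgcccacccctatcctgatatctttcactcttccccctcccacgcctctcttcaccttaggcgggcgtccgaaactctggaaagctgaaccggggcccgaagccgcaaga
Nfkbia: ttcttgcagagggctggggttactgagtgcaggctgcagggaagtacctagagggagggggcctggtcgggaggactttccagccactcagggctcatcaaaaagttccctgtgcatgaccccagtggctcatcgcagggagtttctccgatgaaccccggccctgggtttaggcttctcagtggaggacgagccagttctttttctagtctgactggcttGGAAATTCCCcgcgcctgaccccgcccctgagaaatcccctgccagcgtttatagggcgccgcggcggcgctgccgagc
Such a match is a description of the letters only. The motif stood in 4.37% of the 412 promoters of genes called at least 4-fold higher, in 1.84% of the 435 of genes called at least 4-fold lower and in 1.72% of the 9173 promoters of all genes tested that matched the table. Promoters were counted and not genes, the 412 coming from 289 genes, and all 3 starts of Nfkb2 held the motif. The Nfkb2 window shown overlaps that of the start before it, and both hold the same copy, which was counted for each. The TTTCC end of the motif can overlap the NFAT letters TGGAAA read on the other strand.

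The gene of NFATc1, the transcription factor on which osteoclast formation depends, was already detected at day 0 and its transcript rose further. Nfatc1 stood at 11.22 and 11.24 at day 3, against 9.10 and 9.44 at day 0 (1.96 ± 0.13, limma adjusted p = 2e-05), and its 4 detected probes differed by 1.91 to 3.44. Of 11 NFAT and calcineurin genes 6 rose and 1 fell (median 0.33), among them the calcineurin regulators Rcan1 (1.11 ± 0.09) and Rcan2, which was detected on neither day 0 array and was at least 4.54-fold higher. Nfatc2 and Nfatc3 differed by 0.07 and 0.18, with no call. Of the ITAM costimulation genes 4 of 12 rose (33.3%, against 29.2% of all genes) and 5 fell (41.7%, against 29.8%), with a median of -0.01. Oscar, a collagen receptor that signals through the FcR gamma chain, stood at 13.38 and 13.45 at day 3, against 6.54 and 5.71 at day 0 (7.29 ± 0.25, limma adjusted p = 1.2e-06). Trem2, a receptor that signals through DAP12, was lower, at 10.56 and 10.51 at day 3 against 13.98 and 14.09 at day 0 (fell by 3.50 ± 0.11). The adaptor genes changed less, with Fcer1g lower by 0.71 ± 0.08 and Tyrobp, which codes for DAP12, at -0.08 ± 0.11 with no call. Of the 4 ITAM calls higher, 2 were lost without day 0 replicate 1 and 2 without day 3 replicate 2.

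The promoters of Ctsk and Oscar, both known as targets of NFATc1, are printed with the NFAT letters TGGAAA in capitals, here read on the opposite strand as TTTCCA. They lie at chr3:95498960-95499259 (+ strand) and chr7:3616108-3616407 (- strand), also from RefSeq (GRCm38.p6).
Ctsk: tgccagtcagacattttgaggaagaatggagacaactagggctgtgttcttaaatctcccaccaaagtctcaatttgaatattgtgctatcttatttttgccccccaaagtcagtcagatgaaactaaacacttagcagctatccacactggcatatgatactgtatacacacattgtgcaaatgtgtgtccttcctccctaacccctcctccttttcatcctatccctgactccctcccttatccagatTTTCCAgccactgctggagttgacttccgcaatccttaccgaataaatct
Oscar: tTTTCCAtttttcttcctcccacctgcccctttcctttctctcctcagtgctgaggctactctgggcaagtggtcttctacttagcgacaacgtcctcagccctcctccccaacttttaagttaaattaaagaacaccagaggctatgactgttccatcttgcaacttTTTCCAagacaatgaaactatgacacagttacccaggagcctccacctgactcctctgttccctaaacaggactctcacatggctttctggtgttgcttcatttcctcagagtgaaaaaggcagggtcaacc
The NFAT letters are common. They stood in 20.1% of promoters of genes called at least 4-fold higher, 19.8% of those at least 4-fold lower and 16.8% of all tested genes, and in 4 of 23 promoters of the bone resorption list (17.4%).

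AP-1 factors split by member. Of 11 tested genes 6 rose and 4 fell (median 0.65, or 0.31 with genes undetected on 1 day at their bound). Jdp2, needed for osteoclast formation in mice, rose to 13.21 and 13.24 at day 3, against 7.84 and 7.82 at day 0 (5.39 ± 0.11). Fos, without which mice have no osteoclasts, stood at 11.01 and 11.01 at day 3, against 9.77 and 9.84 at day 0 (1.21 ± 0.14), and Junb and Jund rose by 1.62 ± 0.09 and 1.49 ± 0.10. Atf3, a stress-induced factor, fell to 5.78 and 6.14 at day 3, against 9.92 and 9.85 at day 0 (fell by 3.92 ± 0.16). Batf3, known from dendritic cells, was detected on neither day 3 array and was at least 3.40-fold lower. Among the 6 AP-1 genes detected on all 8 arrays, 1 fell.

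More lineage factors of the macrophage fell than rose. In the list of MITF, PU.1 and other lineage factors 3 of 12 genes rose (Spi1, Mef2d and Usf2) and 7 fell (median -0.59). Spi1, which codes for PU.1, stood at 11.16 and 11.34 at day 3, against 10.02 and 10.10 at day 0 (1.19 ± 0.10). Mef2c fell to 6.26 and 5.91 at day 3, against 9.74 and 9.34 at day 0 (fell by 3.46 ± 0.17), and Cebpb to 10.97 and 10.99, against 12.79 and 12.78 (fell by 1.81 ± 0.08). Ikzf1, which codes for Ikaros, was detected on neither day 3 array and was at least 4.82-fold lower. Of 10 tested repressors of osteoclast formation 7 fell and 1 rose (median -1.33). Id1, an inhibitor of helix-loop-helix factors, fell to 5.25 and 4.94 at day 3, against 10.66 and 10.92 at day 0 (fell by 5.69 ± 0.24). Irf8, which restrains NFATc1 in macrophages, fell to 5.29 and 5.40 at day 3, against 9.06 and 9.06 at day 0 (fell by 3.72 ± 0.24). Klf2 (fell by 2.83 ± 0.15), Id3 (fell by 2.19 ± 0.08) and Bcl6 (fell by 1.33 ± 0.13) fell too, whereas Klf4 differed by 0.03 with no call. Bhlhe40, a repressor of the helix-loop-helix class that stands on no list, rose to 11.55 and 11.60 at day 3, against 6.30 and 5.68 at day 0 (5.59 ± 0.19).

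Proteases and hydrolases of the lysosome did not follow Ctsk as a class. Of 11 other cathepsins 3 rose and 7 fell (median -0.80, or -0.72 with genes undetected on 1 day at their bound). The cathepsins of antigen presentation were lower, with Ctss at 7.32 and 7.21 at day 3 against 9.61 and 8.85 at day 0 (fell by 1.96 ± 0.22) and Ctsl at 5.87 and 5.74 against 7.78 and 8.18 (fell by 2.18 ± 0.15). Ctsc, which activates granule proteases, fell to 11.20 and 11.20 at day 3, against 13.85 and 13.94 at day 0 (fell by 2.69 ± 0.08). Of 31 lysosomal hydrolase and membrane protein genes 14 rose and 9 fell (median 0.26). The hydrolases that rose most were Arsb, a sulfatase of glycosaminoglycans, at 14.70 and 14.70 at day 3 against 11.22 and 11.21 at day 0 (3.49 ± 0.09), and Glb1, a beta-galactosidase, at 12.70 and 12.92 against 10.57 and 10.64 (2.21 ± 0.11). Membrane proteins were among those that fell, Lamp1 to 12.29 and 12.56 at day 3 against 14.12 and 14.10 at day 0, and Slc11a1, a metal transporter of the phagosome, to 12.57 and 12.65 against 14.64 and 14.67. Of 9 further metalloproteinase and inhibitor genes 2 rose and 6 fell (median -1.07), with Timp1 lower by 1.67 ± 0.13 and Timp2 higher by 0.60 ± 0.12. Adamts4 (0.60 ± 0.22) was called higher, but not without day 0 replicate 2 (limma adjusted p = 0.2379) or without day 3 replicate 2 (limma adjusted p = 0.2347).

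**Figure D3:**
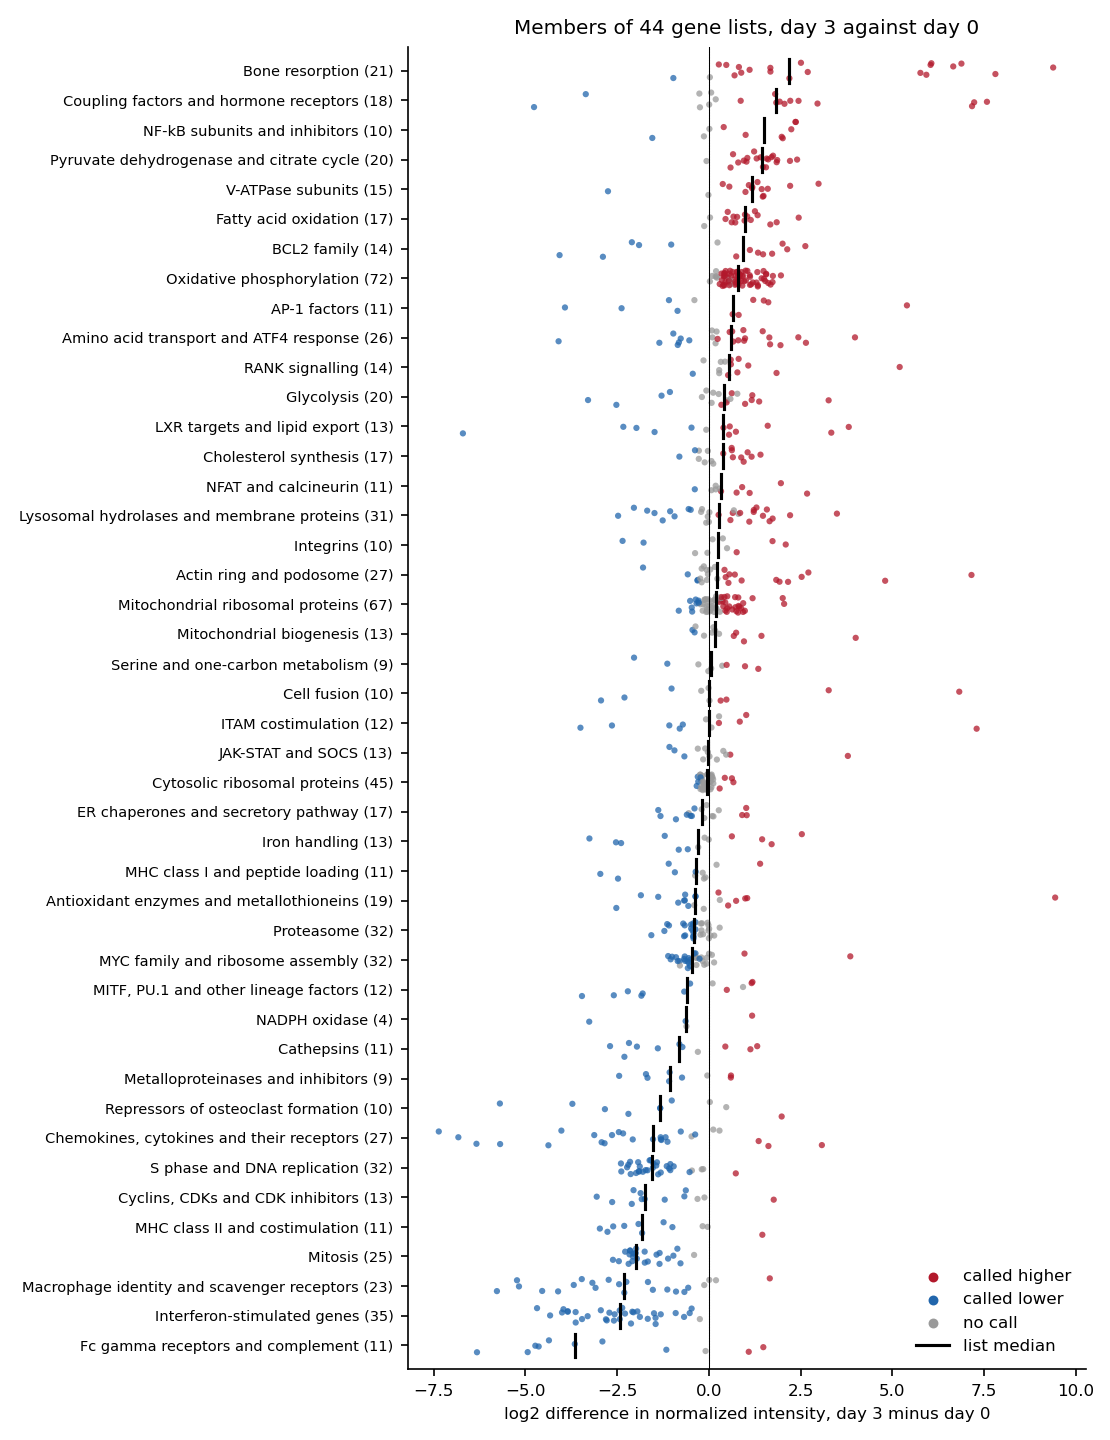
Log2 difference (day 3 minus day 0) of each tested member of 44 gene lists, sorted by list median (black bar), with the number of tested genes in brackets and calls higher in red, lower in blue and none in grey. Bone resorption has the highest median (2.19), and Fc gamma receptors with complement the lowest (-3.65).

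Nuclear genes for the energy metabolism of the mitochondrion rose together, most of them less than 4-fold. In oxidative phosphorylation 63 of the 72 genes tested rose and none fell (median 0.78), with members of every respiratory complex and of the ATP synthase among them. Sdhb of complex II rose by 1.74 ± 0.12, and Cyc1 of complex III stood at 13.54 and 13.60 at day 3, against 11.88 and 11.91 at day 0 (1.68 ± 0.09). Ndufb10 of complex I rose by 1.73 ± 0.15, Cox7b of complex IV by 1.53 and Atp5a1 of the ATP synthase by 1.96 ± 0.28. The 9 genes with no call differed by 0.03 to 0.59. Against a 2-fold change as the null, 11 of the 63 kept a call. Of 20 genes of pyruvate dehydrogenase and the citrate cycle 19 rose and none fell (median 1.44), Pdhb among them at 12.15 and 11.86 at day 3 against 9.52 and 9.69 at day 0 (2.40 ± 0.12), and citrate synthase, Cs, at 12.68 and 12.70 against 11.24 and 11.20 (1.47 ± 0.08). The kinases that switch pyruvate dehydrogenase off rose as well, Pdk1 to 10.84 and 10.73 at day 3 against 8.64 and 8.52 at day 0 (2.21 ± 0.10). Of 17 fatty acid oxidation genes 15 rose and none fell (median 0.97), led by Acaa2 (2.44 ± 0.15) and Etfdh (1.85 ± 0.11).

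The regulator Ppargc1b, a coactivator known to drive mitochondrial gene expression in osteoclasts, rose to 11.35 and 11.34 at day 3, against 7.47 and 7.22 at day 0. Its partner receptor Esrra rose to 11.87 and 11.77, against 10.44 and 10.34 (1.43 ± 0.09). The mitochondrial biogenesis list, which counts Ppargc1b, was divided, with 5 of 13 higher, 2 of them at least 2-fold, and 2 lower (median 0.17). Tfam, which packages and transcribes mitochondrial DNA, stood at 9.05 and 9.04 at day 3, against 8.78 and 8.77 at day 0 (0.28 ± 0.13, no call). The 2 calls lower, Nrf1 and Polg, were both lost without day 0 replicate 2 and without day 3 replicate 1. Mitochondrial ribosomal proteins also moved less, with 27 of 67 higher and 9 lower (median 0.19), with 4 lower without day 0 replicate 1 and 5 without day 3 replicate 2.

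Glycolysis genes had no common direction, 8 of 20 rising (40%, against 29.2% of all genes) and 4 falling (20%, against 29.8%), with a median of 0.41. Aldoc, an aldolase, rose to 11.68 and 11.75 at day 3, against 8.73 and 8.18 at day 0 (3.26 ± 0.17), and Pfkl and Pfkm, which code for phosphofructokinases, by 1.37 ± 0.09 and 1.18 ± 0.09. Genes of glucose uptake and phosphorylation fell, the transporter gene Slc2a3 to 6.38 and 6.46 at day 3 against 9.74 and 9.69 at day 0 (fell by 3.29 ± 0.12) and the hexokinase gene Hk3 to 10.14 and 10.17 against 12.68 and 12.67 (fell by 2.52 ± 0.08). Slc2a1, another glucose transporter, differed by 0.27 ± 0.10 with no call. Of 9 serine and one-carbon genes 3 rose and 2 fell (median 0.06), with the mitochondrial folate enzyme Mthfd2 higher by 1.34 ± 0.12 and thymidylate synthase, Tyms, lower by 2.04 ± 0.12.

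Genes of the amino acid stress response rose in part. Of 26 genes on the list of amino acid transport and the ATF4 response 15 rose and 7 fell (median 0.60, or 0.49 with bounds). Chac1, which degrades glutathione, stood at 10.25 and 10.37 at day 3, against 6.36 and 6.30 at day 0 (3.98 ± 0.09), and asparagine synthetase, Asns, at 11.83 and 12.04, against 9.28 and 9.31 (2.64 ± 0.12). Atf4 itself rose by 0.94 ± 0.15, and Ddit3, another stress factor, differed by 0.10 with no call. Transporters of large neutral amino acids were lower, Slc7a8 at 8.19 and 8.41 at day 3 against 12.30 and 12.49 at day 0 (fell by 4.10 ± 0.13). Of 17 cholesterol synthesis genes 9 rose and 2 fell (median 0.39), 1 of the 2 losing its call without day 0 replicate 2 or without day 3 replicate 1 (Ebp, limma adjusted p = 0.07944 and 0.07825), with Insig1 at 1.40 ± 0.11 and Nsdhl at 1.16 ± 0.14. LXR target and lipid export genes split widely, 7 of 13 rising and 5 falling (median 0.40). Abcg1, a cholesterol exporter, was detected on neither day 0 array and was at least 10.6-fold higher (8.65 and 8.69 at day 3, 4.68 and 5.04 at day 0), and the desaturase gene Scd2 rose by 3.33 ± 0.18. Ch25h, which makes 25-hydroxycholesterol, was detected on neither day 3 array and was at least 78.5-fold lower (4.85 and 4.83 at day 3, 11.72 and 11.37 at day 0). Apoe fell by 1.48 ± 0.08 and the lipid droplet gene Plin2 by 1.98 ± 0.09.

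Iron genes moved in both directions, 4 of 13 rising (30.8%, against 29.2% of all genes) and 6 falling (46.2%, against 29.8%), with a median of -0.29. The transferrin receptor gene Tfrc stood at 14.86 and 14.82 at day 3, against 12.21 and 12.41 at day 0 (2.53 ± 0.10), and the endosomal iron transporter gene Slc11a2 rose by 1.71 ± 0.12. The exporter gene Slc40a1 stood at 8.92 and 9.02 at day 3, against 11.52 and 11.49 at day 0 (fell by 2.53 ± 0.15), and heme oxygenase, Hmox1, at 6.77 and 8.04, against 11.03 and 10.28. Fth1, the ferritin heavy chain, differed by -0.12 ± 0.08 with no call. Transferrin, Trf, fell by 1.20 ± 0.12. Of 19 antioxidant and metallothionein genes 6 rose and 10 fell (median -0.37), and a metallothionein gave the largest lower bound of all genes. Mt3 stood at 14.25 and 14.13 at day 3 and was detected on neither day 0 array (4.79 and 4.72), at least 489.6-fold higher. The related Mt2 stood at 5.58 and 5.97 at day 3, against 5.66 and 6.18 at day 0, with overlapping arrays and no call. Ncf1, a cytosolic subunit of the phagocyte NADPH oxidase, fell to 5.84 and 6.07 at day 3, against 9.26 and 9.17 at day 0 (fell by 3.26 ± 0.11), while Ncf4, another cytosolic subunit, rose by 1.18 ± 0.09.

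Genes of cell division fell almost throughout. Of 32 S phase and DNA replication genes 28 fell and 1 rose (median -1.56), and of 25 mitosis genes 24 fell and none rose (median -1.98). The helicase gene Mcm5 stood at 10.86 and 10.87 at day 3, against a mean of 13.02 at day 0 (fell by 2.15 ± 0.10), and thymidine kinase, Tk1, at 10.02 and 9.84, against 12.43 and 12.20 (fell by 2.39 ± 0.12). Cdk1, the kinase that starts mitosis, stood at 9.82 and 9.62 at day 3, against 11.90 and 11.86 at day 0 (fell by 2.16 ± 0.10), and Plk1, a mitotic kinase, at 9.50 and 9.21, against 11.51 and 11.58 (fell by 2.19 ± 0.12). All 4 were still detected on both day 3 arrays, although 11 of the 41 members of the mitosis list were below the detection filter. Chaf1b, a chromatin assembly factor, was the S phase gene that rose (0.73 ± 0.08), and Ube2c was the mitosis gene with no call. Of 13 cyclin, kinase and inhibitor genes 10 fell and 1 rose (median -1.75). The D cyclins fell together, Ccnd1 to 11.13 and 11.25 at day 3 against 14.29 and 14.21 at day 0 (fell by 3.06 ± 0.09), Ccnd3 by 1.86 ± 0.09 and Ccnd2 by at least 4.05-fold, to a level detected on neither day 3 array. Of the inhibitors of cyclin-dependent kinases, Cdkn1c rose to 9.96 and 9.94, against 8.15 and 8.22 (1.76 ± 0.11), and Cdkn1a fell to 11.40 and 11.28, against 12.60 and 12.48 (fell by 1.20 ± 0.09).

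Promoters of 3 of these genes are shown with the letters of cell cycle elements in capitals. Cdk1 (chr10:69352863-69353162, - strand) and Plk1 (chr7:122159185-122159484, + strand) hold the cell cycle homology region, CHR (TTTGAA on either strand). Mcm5 (chr8:75109259-75109558, + strand) holds the E2F letters TTTNNCGC on both strands in an overlapping pair. Capitals mark CHR in Cdk1 and Plk1 and E2F in Mcm5, and the Cdk1 window also holds E2F letters, left in lower case. The build is GRCm38.p6 (RefSeq).
Cdk1: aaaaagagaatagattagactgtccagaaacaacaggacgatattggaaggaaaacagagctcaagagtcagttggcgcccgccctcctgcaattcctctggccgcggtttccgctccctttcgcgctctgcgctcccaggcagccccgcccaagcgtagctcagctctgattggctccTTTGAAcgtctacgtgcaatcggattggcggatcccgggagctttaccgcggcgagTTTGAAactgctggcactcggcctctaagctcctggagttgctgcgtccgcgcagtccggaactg
Plk1: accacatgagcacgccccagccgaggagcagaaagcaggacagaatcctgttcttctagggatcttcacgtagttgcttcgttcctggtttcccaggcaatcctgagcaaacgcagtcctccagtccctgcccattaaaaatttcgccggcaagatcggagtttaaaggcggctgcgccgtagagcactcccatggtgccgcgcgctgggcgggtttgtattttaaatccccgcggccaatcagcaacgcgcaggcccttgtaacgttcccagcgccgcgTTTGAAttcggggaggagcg
Mcm5: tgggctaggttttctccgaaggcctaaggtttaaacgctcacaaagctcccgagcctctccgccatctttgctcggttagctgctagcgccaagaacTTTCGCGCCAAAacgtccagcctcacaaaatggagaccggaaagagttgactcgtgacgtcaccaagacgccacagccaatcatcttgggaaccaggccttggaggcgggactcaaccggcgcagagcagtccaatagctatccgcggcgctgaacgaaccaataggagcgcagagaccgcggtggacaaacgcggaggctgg
CHR letters stood in 19 of 24 promoters of the mitosis list (79.2%), in 11.8% of the 34 of the S phase list and in 11.9% of all tested. The E2F letters, a motif added after values had been seen, stood in 10 of 34 S phase promoters (29.4%), 12.5% of mitosis promoters and 8.11% of all. CCAAT, the box of NF-Y, stood in 75% of mitosis promoters, 52.9% of S phase promoters and 37.8% of all. It was not particular to these lists, being held by 14 of 17 cholesterol synthesis promoters (82.4%). Genes called at least 4-fold lower held CCAAT in 34.9% of promoters and genes at least 4-fold higher in 35.2%. For the E2F letters these shares were 7.82% and 3.88%. Genes called at least 4-fold lower, Cdk1 and Plk1 among them, held CHR letters in 18.9% of promoters and genes at least 4-fold higher in 8.5%. The CHR letters are mostly A and T, and the sets differed in base composition. Median GC was 54.7% in the lower set, 59.3% in the higher set and 60.3% in all tested. Over 32851 RefSeq promoters of tested and other genes, with a median GC of 52.7%, CHR letters stood in 17.9%. The part of base composition in the contrast was not tested.

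Genes of ribosome assembly and protein turnover fell by small amounts. Of 32 MYC family and ribosome assembly genes 18 fell and 2 rose (median -0.46). Mycl, a MYC family member, rose to 9.07 and 9.05 at day 3, against 5.28 and 5.14 at day 0, where 1 array detected it (3.85 ± 0.09), whereas Myc differed by -0.34 ± 0.14 with no call. The nucleolar genes Nop56 and Polr1a fell by 1.04 ± 0.12 and 0.90 ± 0.08. Cytosolic ribosomal proteins were mostly without a call, with 4 of 45 higher and 4 lower (median -0.07), and the count of lower members moved between 0 and 16 across the alternatives. Of 32 proteasome genes 19 fell and none rose (median -0.42). The 4 with the largest decreases were the inducible subunits of the immunoproteasome and its activator, Psmb8 (fell by 1.57 ± 0.11), Psmb10 (fell by 1.21 ± 0.09), Psmb9 (fell by 1.14 ± 0.08) and Psme1 (fell by 1.09 ± 0.08), while the constitutive subunit gene Psmb5 differed by 0.01 ± 0.11 and the activator gene Psme2 by -0.04, both with no call. Of 17 genes of the endoplasmic reticulum 3 rose and 7 fell (median -0.20), 4 of them lower without day 0 replicate 1 or day 3 replicate 1.

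Interferon-stimulated genes fell almost without exception. Of 42 members 35 were tested, 34 fell and none rose, with a median difference of -2.43 (-2.36 with bounds). Ifit3, an antiviral protein, stood at 6.82 and 6.95 at day 3, against 11.52 and 11.62 at day 0 (fell by 4.68 ± 0.20, limma adjusted p = 2.5e-06). Irf7, the factor that amplifies the interferon response, stood at 6.07 and 6.58 at day 3, against 10.63 and 10.68 at day 0 (fell by 4.33 ± 0.17). Isg15, a ubiquitin-like modifier, stood at 6.38 and 6.70, against 9.42 and 9.27 (fell by 2.81 ± 0.16), and Usp18, which removes it from its targets, at 7.84 and 7.97 at day 3, against 12.01 and 11.80 at day 0. The arrays of the days were far apart for each of them. Trim25 was the member with no call (-0.25), and Stat2 and Irf9, which code for the factors that carry the signal to these genes, fell by 2.57 and 1.88.

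The promoters of Ifit3 (chr19:34583279-34583578, + strand) and Isg15 (chr4:156200769-156201068, - strand) are shown because both carry more than 1 interferon-stimulated response element, ISRE, searched on both strands and set in capitals. In Isg15 the copies overlap. They are from RefSeq (GRCm38.p6).
Ifit3: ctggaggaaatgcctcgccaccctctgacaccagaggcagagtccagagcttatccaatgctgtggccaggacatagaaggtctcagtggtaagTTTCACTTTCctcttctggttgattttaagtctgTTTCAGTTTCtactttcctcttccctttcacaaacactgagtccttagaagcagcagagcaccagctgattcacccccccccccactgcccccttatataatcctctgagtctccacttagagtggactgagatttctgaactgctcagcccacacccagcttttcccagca
Isg15: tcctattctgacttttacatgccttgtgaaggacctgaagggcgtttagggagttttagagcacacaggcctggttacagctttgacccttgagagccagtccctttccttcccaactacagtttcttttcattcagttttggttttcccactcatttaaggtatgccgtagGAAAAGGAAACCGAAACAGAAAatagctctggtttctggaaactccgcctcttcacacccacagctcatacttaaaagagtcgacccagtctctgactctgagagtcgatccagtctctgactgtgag
The ISRE motif stood in 17 of 32 promoters of the list (53.1%), in 8.05% of promoters of genes called at least 4-fold lower, 2.18% of those at least 4-fold higher and 3.17% of all tested genes. The set at least 4-fold lower includes list members such as Ifit3 and Isg15, so its share counts some of the same promoters again.

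**Figure D4:**
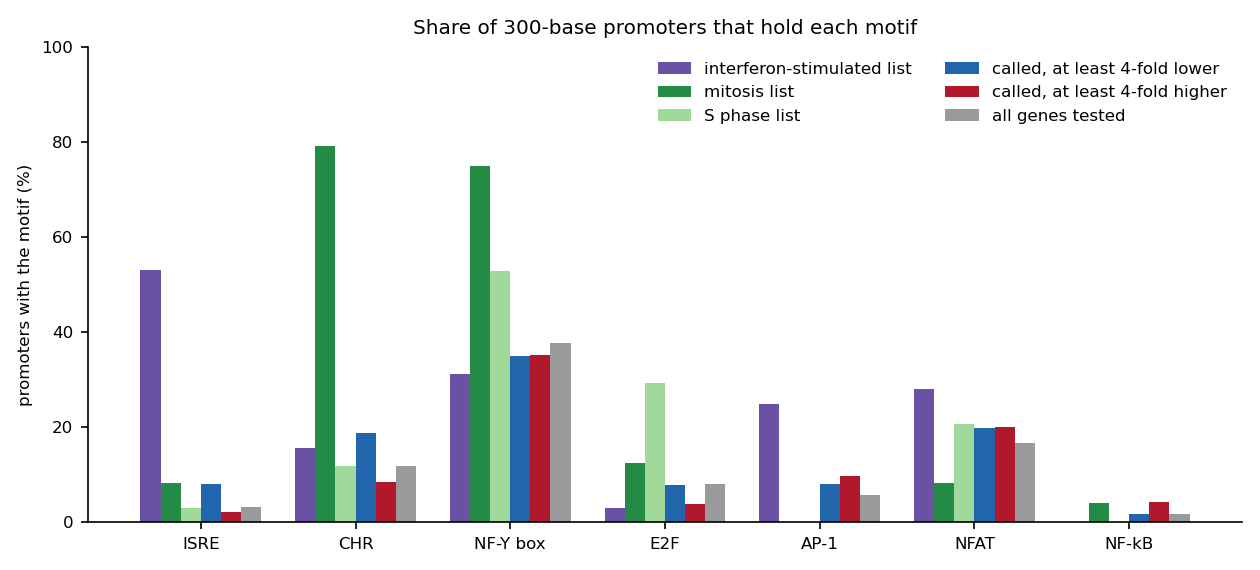
Share of 300-base promoters (%) that hold the letters of 7 motifs, for the interferon-stimulated, mitosis and S phase lists, for genes called at least 4-fold lower or higher at day 3, and for all genes tested. The interferon-stimulated list stands out for ISRE (53.1% against 3.17% of all) and the mitosis list for CHR (79.2% against 11.9%), while NFAT letters were near 20% in genes that changed in either direction.

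Antigen presentation fell with the interferon genes. Of 11 MHC class II and costimulation genes 8 fell and 1 rose (median -1.82). H2-Ab1, a class II chain, stood at 8.42 and 8.31 at day 3, against 10.90 and 11.04 at day 0 (fell by 2.61 ± 0.11), and the invariant chain, Cd74, at 10.14 and 9.98, against 11.80 and 11.97 (fell by 1.82 ± 0.10). Cd40, a costimulatory receptor, fell by 2.97 ± 0.11. Ifi30, a lysosomal thiol reductase of the same pathway, was the member that rose, to 13.96 and 13.80 at day 3 against 12.41 and 12.44 at day 0 (1.45 ± 0.09). Class I genes moved less, with 5 of 11 lower and 1 higher (median -0.36). Nlrc5, the class I transactivator, fell by 2.48 ± 0.12, and the peptide transporter genes moved apart, Tap1 falling by 0.93 ± 0.09 and Tap2 rising by 1.39 ± 0.09.

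Surface receptors that mark the macrophage fell in 19 of 23 cases and rose in 1 (median -2.31, or -2.25 with bounds). Siglec1, the sialic acid receptor CD169, stood at 5.83 and 5.69 at day 3, against 11.58 and 11.49 at day 0 (fell by 5.78 ± 0.18). Cx3cr1, the fractalkine receptor, stood at 5.82 and 6.27 at day 3, against 11.59 and 10.97 at day 0 (fell by 5.23 ± 0.27), and Axl, a receptor for apoptotic cells, at 6.25 and 6.48, against 11.62 and 11.46 (fell by 5.17 ± 0.12). Adgre1 and Cd14 were lower at day 3 but detected on both arrays, Adgre1 at 9.39 and 9.40 and Cd14 at 10.32 and 10.26. Of 11 Fc gamma receptor and complement genes 8 fell and 2 rose (median -3.65), the lowest median of the 44 lists. Fcgr1, the high-affinity IgG receptor, stood at 5.55 and 5.22 at day 3, where 1 array detected it, against 11.64 and 11.76 at day 0 (fell by 6.32 ± 0.13). The 3 chains of C1q fell alike, C1qa by 4.94 ± 0.15, C1qb by 4.64 ± 0.14 and C1qc by 4.73 ± 0.09. Cd59a, which blocks the complement pore, rose to 13.10 and 13.06, against 11.59 and 11.61 (1.48 ± 0.08).

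Of 27 chemokine, cytokine and receptor genes 21 fell and 3 rose (median -1.52, or -1.44 with bounds). Ligands of Ccr2 that draw monocytes fell most, Ccl7 being detected on neither day 3 array (4.78 and 4.66) against 12.23 and 11.92 at day 0, at least 113.8-fold lower. Ccl2 stood at 5.00 and 5.29 at day 3, where 1 array detected it, against 12.08 and 11.86 at day 0 (fell by 6.83 ± 0.16). Ccl12, another such ligand, stood at 5.03 and 5.63 at day 3, where 1 array detected it, against 11.69 and 11.64 at day 0 (fell by 6.33 ± 0.25). Ccl4 fell by 5.69 ± 0.08 and Tnf by 2.64 ± 0.15. Ccl9 is a further chemokine gene and is known to be made by osteoclasts. It stood at 14.79 and 14.62 at day 3, against 14.67 and 14.49 at day 0, with overlapping arrays. Il1rn, the interleukin-1 receptor antagonist, rose to 9.63 and 9.73, against 6.67 and 6.54 (3.08 ± 0.09), and the chemokine receptor gene Cxcr4 rose by 1.62 ± 0.17.

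Genes of survival and death were rearranged within the BCL2 family, with 8 of 14 rising and 5 falling (median 0.93). Bcl2l1, which codes for the survival protein Bcl-xL, fell to 5.88 and 6.23 at day 3, against 9.01 and 8.88 at day 0 (fell by 2.89 ± 0.16), and its other detected probes differed by -2.42 and -1.72, both called. Mcl1, another survival protein, rose to 12.97 and 13.16 at day 3, against 11.96 and 11.94 at day 0 (1.12 ± 0.10). Proteins that promote death split too. Bmf and Bcl2l11, which codes for Bim, rose by 2.13 ± 0.11 and 1.47 ± 0.11, whereas Bid fell by 2.10 ± 0.12 and Bik, detected on neither day 3 array, was at least 11.4-fold lower. Socs2, a feedback inhibitor of cytokine signals, was detected on neither day 0 array (5.06 and 5.00) and stood at 8.74 and 8.88 at day 3, at least 11.8-fold higher. Most other JAK-STAT genes gave no call (8 of 13).

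Genes through which osteoclasts signal to bone-forming cells, or respond to hormones, rose in 11 of 18 tested cases and fell in 2 (median 1.82, or 1.49 with bounds). A further 13 of the 35 members were below the detection filter. Sphk1, the kinase that makes sphingosine 1-phosphate, stood at 11.77 and 11.88 at day 3 and was detected on neither day 0 array (4.60 and 4.72), at least 95.1-fold higher, although its other detected probe differed by 0.27 with no call. F2r, the thrombin receptor, stood at 12.16 and 12.15 at day 3, against 4.47 and 4.70 at day 0, at least 119.6-fold higher, and the receptor kinase gene Mst1r averaged 11.95 at day 3, against 4.73 at day 0, at least 104.0-fold higher. Calcr, the calcitonin receptor that marks late osteoclasts, was at 7.21 and 6.99 at day 3 and detected on neither day 0 array, at least 3.59-fold higher. Sema4d, a semaphorin that acts on osteoblasts, rose by 2.22 ± 0.15. Igf1, the insulin-like growth factor, fell to 9.06 and 9.01 at day 3, against 13.72 and 13.88 at day 0 (fell by 4.76 ± 0.09).

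Large changes also fell outside the lists. Among genes detected on neither day 0 array, Tmem204 (at least 100.5-fold), Rufy4 (at least 83.4-fold) and Mustn1 (at least 73.8-fold) were among the 8 largest bounds. Klra17, a lectin-like receptor, rose to 11.47 and 11.46 at day 3, against 5.56 and 4.98 at day 0, where 1 array detected it. Denn2b, which carries a DENN domain, rose by 5.87 ± 0.12, Slc45a3 by 5.25 ± 0.11 and Cyb561, a transmembrane ascorbate reductase, by 5.20 ± 0.13. In the other direction, the neighbouring ribonuclease genes Ang and Rnase4 fell by 5.92 ± 0.15 and 6.12 ± 0.22, the chemokine gene Cxcl14 by 5.45 ± 0.19, the G protein regulator gene Rgs1 by 5.09 ± 0.15 and Ly86, a partner of a Toll-like receptor homologue, by 4.75 ± 0.12. The other detected probe of Rnase4 differed by only -3.38. Slco2b1, an organic anion transporter, and Dnmt3l, a regulator of DNA methylation, were detected on neither day 3 array and were at least 29.99-fold and 29.8-fold lower. The other large bounds in this direction were Cyp4f18 (at least 25.8-fold lower), Pald1 (at least 24.6-fold), Nanos1 (at least 21.3-fold) and Phf11a (at least 14.04-fold), all detected on both day 0 arrays and on neither day 3 array. The other detected probes of Cyp4f18 differed by -3.51 and -1.08.

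The arrays of days 1 and 2, which were fitted together with the 4 compared here, show when the end-point levels were reached. Among the 2533 genes that rose, the highest of the 4 daily means was at day 3 for 1768, at day 2 for 569 and at day 1 for 196, and among the 2583 that fell, the lowest mean was at day 3 for 1785, at day 2 for 558 and at day 1 for 240. These genes were called from the same day 3 and day 0 arrays. Day 0 could therefore not hold the extreme mean, and day 3 was favoured by the choice. From day 0 to day 3, the daily means of Ctsk were 8.15, 13.92, 14.96 and 15.02, so that most of its difference was present after the first day. Oscar averaged 6.12, 6.69, 12.40 and 13.42 on the same days, and Mt3 averaged 4.76, 6.19, 13.45 and 14.19. Fcgr3, a low-affinity IgG receptor, at 12.47, 8.70, 8.19 and 8.11, and Bcl2l1, at 8.94, 6.01, 6.02 and 6.06, were near their low level by day 1. Cdk1 (11.88, 11.79, 10.65 and 9.72) and Mcm5 (13.02, 13.09, 11.70 and 10.87) were near the day 0 level at day 1 and lower after it. Some genes that were lower at day 3 than at day 0 had their highest mean at day 1, such as Fosl1, at 5.72, 7.30, 5.12 and 4.86, and Slc7a5, at 10.65, 12.01, 10.74 and 10.12.

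**Figure D5:**
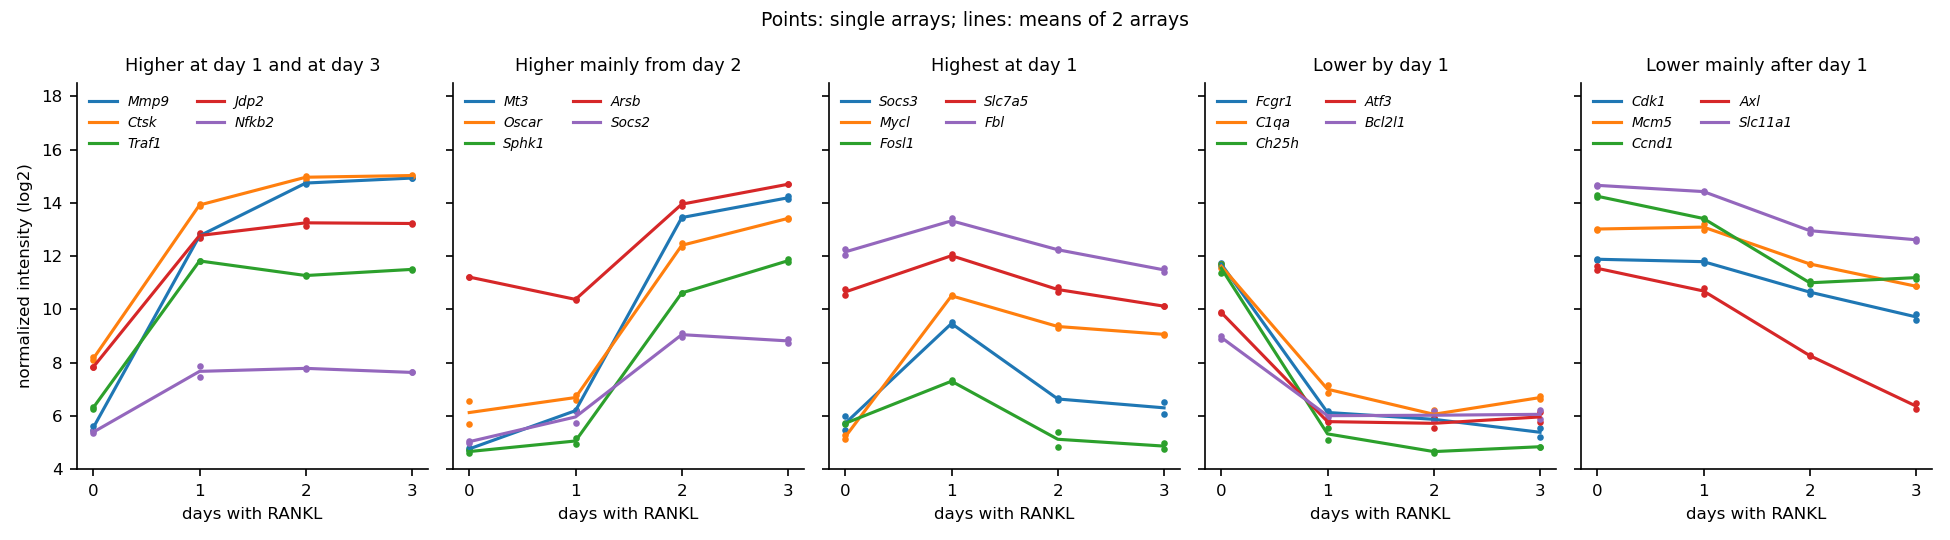
Normalized intensity (log2) against days with RANKL for 25 named genes in 5 panels grouped by the course of their means; points are arrays and lines join the means of 2 arrays. Mmp9 and Ctsk were near their final level at day 2, Oscar and Sphk1 rose after day 1, and Fcgr1 and Ch25h had fallen by day 1, while Cdk1 and Mcm5 fell after day 1.

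Markers of other marrow cells were followed because the culture could hold them. Of 9 tested neutrophil and granulocyte precursor genes 8 fell and none rose. Their summed linear intensity was 404.2 and 401 on the day 3 arrays, against 1387 and 1491 on the day 0 arrays, and all 9 were detected on both day 0 arrays but 1 on both day 3 arrays. Detection on both day 0 arrays is enough to pass the filter, so the filter favoured members that fell. Members without detection still add background to these sums and to the sums below. Mpo, the myeloperoxidase gene, was at least 4.73-fold lower at day 3. These genes moved in the same direction as the macrophage, interferon and cell division lists, and their part in those results was not tested. The summed intensity of 3 T and NK markers was 153.2 and 148.5 at day 3, against 1383 and 1412 at day 0, almost all of it Il7r, which fell by 4.08 ± 0.10 and is also found on myeloid cells, while Cd3e, Cd3d, Cd3g, Cd4 and Cd8a were below the filter. The 2 erythroid and megakaryocyte markers summed to 120.8 and 108 at day 3, against 2045 and 1640 at day 0, mostly through Pf4, a chemokine also listed above (fell by 4.37 ± 0.21). The 5 dendritic cell markers summed to 738 and 713.3 at day 3, against 369.7 and 382.1 at day 0, mostly through Cd83 (2.01 ± 0.15). Of these 5, 3 rose and 2 fell, Batf3 and Siglech, and without either day 0 array these 2 were below the detection filter and not tested. Of 4 tested osteoblast and stromal genes Dcn rose, at least 1.66-fold, and the sums overlapped, at 235 and 168.5 at day 3 against 174.6 and 201 at day 0. For B lineage markers the sums were 114.8 and 96.47 at day 3, against 234.2 and 254.8 at day 0, with Cd79b as the 1 gene of 3 that fell, and neither of 2 mast cell and basophil markers was called (70.14 and 70.1 at day 3, against 66.79 and 65.26 at day 0).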

How the data were processed

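Labelled cRNA of 8 samples was hybridised to Illumina MouseRef-8 BeadChips, 1 colour, per the labels. The deposited signals are linear intensity values per probe, each beside a detection p-value, per the file headers; their lowest values show no background subtraction, and no scanner software is named. Signals were background-corrected (normexp, negative controls being inferred from those p-values), given an offset of 16, quantile-normalized and put on the log2 scale with neqc of limma 3.58.1 in R 4.3.3. Of 25697 probes, 12683 passed a filter of p under 0.05 on 2 or more of the 8 arrays. Of these, 11946 carried a symbol, and each of 8663 genes was represented by its brightest such probe on average. The 4 days were fitted together with lmFit and eBayes, and day 3 minus day 0 was tested with Benjamini-Hochberg adjustment at 0.05. The fit was tested on simulated data.

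For a gene detected on neither array of a day, the bound sets the other day's mean against, per array, the higher of its own value and the lowest signal among detected probes. Arrays carry no count of molecules, so their small number limits the precision. Same-numbered arrays did not deviate together (r from -0.082 to 0.068 between days). The labels do not say what a number shares, and such correlations cannot tell whether the numbers pair samples. The members and gene lists were chosen with earlier results of these data known, and a list is described by its counts and median without a test. Named genes are, among genes called with no overlap of the 2 days, the 15 largest changes in each direction, the 8 largest bounds in each direction, up to 5 members of each list in each direction, and list members picked for their role. Other list members are named singly beside them, and these were chosen after their values were seen. RefSeq promoters (GRCm38.p6) were matched by gene for 7115 genes with 9173 starts. Alternatives covered background, scaling, filters, probe choice, the arrays fitted, a replicate block, the test and each array left out.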

Additional observations from a re-analysis of the deposited data

How the results depend on the processing

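Tested against a 2-fold change, limma called 1367 genes, 659 higher and 708 lower, against 5116 when tested against no change. The other settings gave 4258 to 5402 calls. With each array left out in turn, 4523 to 4981 genes were called, 2228 to 2471 higher and 2250 to 2516 lower. With a replicate block, 5053 genes were called over all 8 arrays (2509 higher and 2544 lower) and 4258 over the 4 arrays of days 3 and 0 (2124 higher and 2134 lower). Median scaling moved the median of all genes to -0.0996, and 42.3% of calls were then higher, against 49.5%. Of 384 named genes that were called, 335 kept the call under every setting that tested them, other than the test against a 2-fold change. The other 49 lost the call somewhere, and none reversed. A gene below the filter of a setting was not tested there and does not count as lost. Among the list counts, those with few or small calls moved most. The count of lower cytosolic ribosomal genes ran from 0 to 16 and that of lower mitochondrial ribosomal genes fell to 2 with the replicate block on 4 arrays. Counts of chemokine genes that fell (12 of 21), of coupling genes that rose (5 of 11) and of neutrophil genes that fell (1 of 8) were smaller among genes detected on all 8 arrays, where fewer genes were tested. Sizes of change depended on the background step. Without background subtraction the median was -1.53 for interferon-stimulated genes (against -2.43) and -0.66 for MHC class II and costimulation (against -1.82). For bone resorption it was 2.14 (against 2.19). Over all settings the difference of Acp5 ran from 3.68 to 6.10 and that of Ctsk from 6.29 to 6.93. The standard errors do not include this dependence. The slide as a block was not run, because the file headers name no slides. Signal over background limits genes near the detection limit. Bounds are given only for genes detected on neither array of a day. Where 1 array of a day detected a gene, as for Acp5 at day 0 or Ccl2 at day 3, the full difference is given. Such a difference also rests on values near the limit.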
